A study of Mus musculus with 8 samples.

Results

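Of the 8 arrays of the series, 4 are described here: the 2 of FGF2 with U0126 and the 2 of vehicle, chosen by their labelled treatment, with every gene measured on them. The array's probe sets named 18194 mouse genes, and 13174 of them passed a filter on low signals and were tested. Per the labels the vehicle group was the control, and the other group received fibroblast growth factor 2 (FGF2) and U0126, a MEK inhibitor. The RNA was total RNA with cerebral cortex of mouse brain as its source, and the series' title speaks of the astroglial response to FGF2. Strain, age, dose, time of treatment and culture state are not given in the sources used here. No label says that the arrays of a group are from different cultures or mice. The spread behind the p-values, that between these samples, may therefore be technical. U0126 without FGF2 was not analysed here, so what U0126 did by itself and what was left of the FGF2 response cannot be told apart in this comparison. The 2 arrays of FGF2 alone are given beside the members as a reference, and both comparisons against vehicle share the vehicle arrays.

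FGF2 binds FGF receptors together with heparan sulfate and activates several routes into the cell, among them RAS, RAF, MEK and ERK, phosphoinositide 3-kinase with AKT, and phospholipase C-gamma. MEK phosphorylates and activates ERK, and ERK in turn drives transcription of its own inhibitors, of AP-1 and ETS transcription factors and of genes for growth and division. In astrocytes FGF2 is known as a mitogen that lowers genes of the mature cell, such as those for gap junctions.

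The signals below are the deposited values, on a linear scale, in the order of the replicate numbers. Changes are log2 changes ± SE with 2 arrays in each group, and a gene is called at an adjusted p under 0.05 in limma's moderated test. With 2 arrays a group the precision of each value is limited. Replicates correlated with r of 0.981 for vehicle and 0.980 for FGF2 with U0126. As a sign of RNA quality, the signal of Actb at its 3' end over that at its 5' end was 1.28 and 1.26 with FGF2 and U0126 and 1.31 and 1.40 with vehicle. For Gapdh, which went the other way, it was 0.745 and 0.758 with FGF2 and U0126 and 0.719 and 0.720 with vehicle. The part of RNA quality in the results was not tested. Defining astrocyte markers were measured on the arrays of both groups: Gfap, the intermediate filament of astrocytes, had 3182 and 3237 with vehicle and 2485 and 2579 with FGF2 and U0126, and the glutamate transporter Slc1a3 had 1720.2 and 1563 and 1683 and 1692. The microglial markers Aif1, Cx3cr1 and Itgam, the neuronal markers Rbfox3 and Snap25, the endothelial markers Pecam1 and Cldn5 and the oligodendrocyte markers Mog and Mag lay below the filter. Other markers of these types passed it, namely Csf1r and Tyrobp of microglia, Syt1 and Tubb3 of neurons, Cdh5 of endothelium and Mbp, Pdgfra, Cspg4 and Sox10 of the oligodendrocyte lineage. The fibroblast marker Dcn, at 2728 and 3069.7 with vehicle, and the ependymal marker Foxj1, at 789 and 802, passed it too.

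With FGF2 and U0126 together, genes of amino acid synthesis, of defence against oxidants, of ribosome assembly and several inhibitors of ERK signalling stood above vehicle. Many genes of connexins and the astrocyte endfoot, of cilia, of interferon responses and of fibroblast matrix stood below it. Of 13174 genes tested 4177 were called, which is 31.7%, with 2196 higher (16.7%) and 1981 lower (15%). At least 2-fold changes were seen in 650 called genes (4.93%), of which 282 were higher (2.14%) and 368 lower (2.79%). The groups did not overlap in deposited signal at 64.3% of all genes, so a lack of overlap is common in this comparison. The median log2 change of all genes was 0.014. This split rests on the scaling: with each array centred on the median of its probe sets, which moved the median of all genes to 0.19, 4030 genes were called higher and 1014 lower. For the same 13174 genes FGF2 against vehicle gave 4991 calls (37.9%), with 18.9% higher and 19% lower. FGF2 with U0126 against FGF2 gave 2916 (22.1%), with 11.6% higher and 10.5% lower. The counts of a list below are to be read beside the shares of the same comparison. In bulk RNA, fewer cells of a type and less RNA per cell cannot be told apart.

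The genes that stood furthest above vehicle were of varied function. Fosl1, a FOS family subunit of AP-1, had signals of 39.5 and 37.9 with vehicle and 514 and 337 with FGF2 and U0126, a log2 change of 3.49 ± 0.16 (limma adjusted p = 5.7e-09). Mthfd2, a mitochondrial enzyme of folate metabolism, had 57.6 and 44.1 and 556 and 442, a log2 change of 3.35 ± 0.18 (limma adjusted p = 2.12e-08). Alkbh2, a DNA repair enzyme, rose by 3.28 ± 0.38 and Cyp24a1, the enzyme that breaks down active vitamin D, by 3.19 ± 0.30. The reductase genes Cyb5r2 and Cyb5r1 rose by 2.96 ± 0.41 and 2.92 ± 0.10. The vehicle signals of Alkbh2 and Cyb5r2 were low, and with a pseudocount of 16 their changes were 1.95 and 1.86. Cdsn, which encodes the adhesion protein corneodesmosin, had 95.2 and 89.8 with vehicle, 99.4 and 68.1 with FGF2 and 602 and 579 with FGF2 and U0126. Its log2 change was 2.69 ± 0.16 with U0126 present and -0.091 ± 0.16 with FGF2 alone, which did not pass the test, so its high arrays were the 2 that received U0126.

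At the other end Defb1, an antimicrobial beta-defensin, had 109.7 and 142 with vehicle and 3.33 and 3.21 with FGF2 and U0126, a log2 change of -4.48 ± 0.41 (limma adjusted p = 3.1e-06). Inmt, an amine methyltransferase, had 1392 and 1481 and 105 and 94.0, a log2 change of -3.83 ± 0.12, against -1.62 ± 0.12 with FGF2 alone. Both Inmt arrays with U0126 lay below both arrays of FGF2 alone, at 429 and 513, a difference of -2.21 ± 0.12 (limma adjusted p = 1.04e-07). The log2 changes were -3.55 ± 0.60 for Ypel4, -3.36 ± 0.72 for the glutamate receptor gene Grm3, -2.86 ± 0.46 for Spon2 and -2.66 ± 0.56 for Rgs4, a regulator of G protein signalling. The size of these changes depends on the pseudocount, since the signals with U0126 were low: with one of 16 they were -2.80 for Defb1, -1.85 for Ypel4, -1.75 for Grm3 and -1.74 for Rgs4. Spon2 was not called without probe sets that can bind several transcripts, at -0.65. Elobl, at 5348 and 6100.5 with vehicle, 300.1 and 267 with FGF2 and 1261 and 1321 with FGF2 and U0126, fell in both comparisons and lay higher with U0126 than with FGF2 alone by 2.17 ± 0.08 (limma adjusted p = 2.57e-09).

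**Figure D1:**
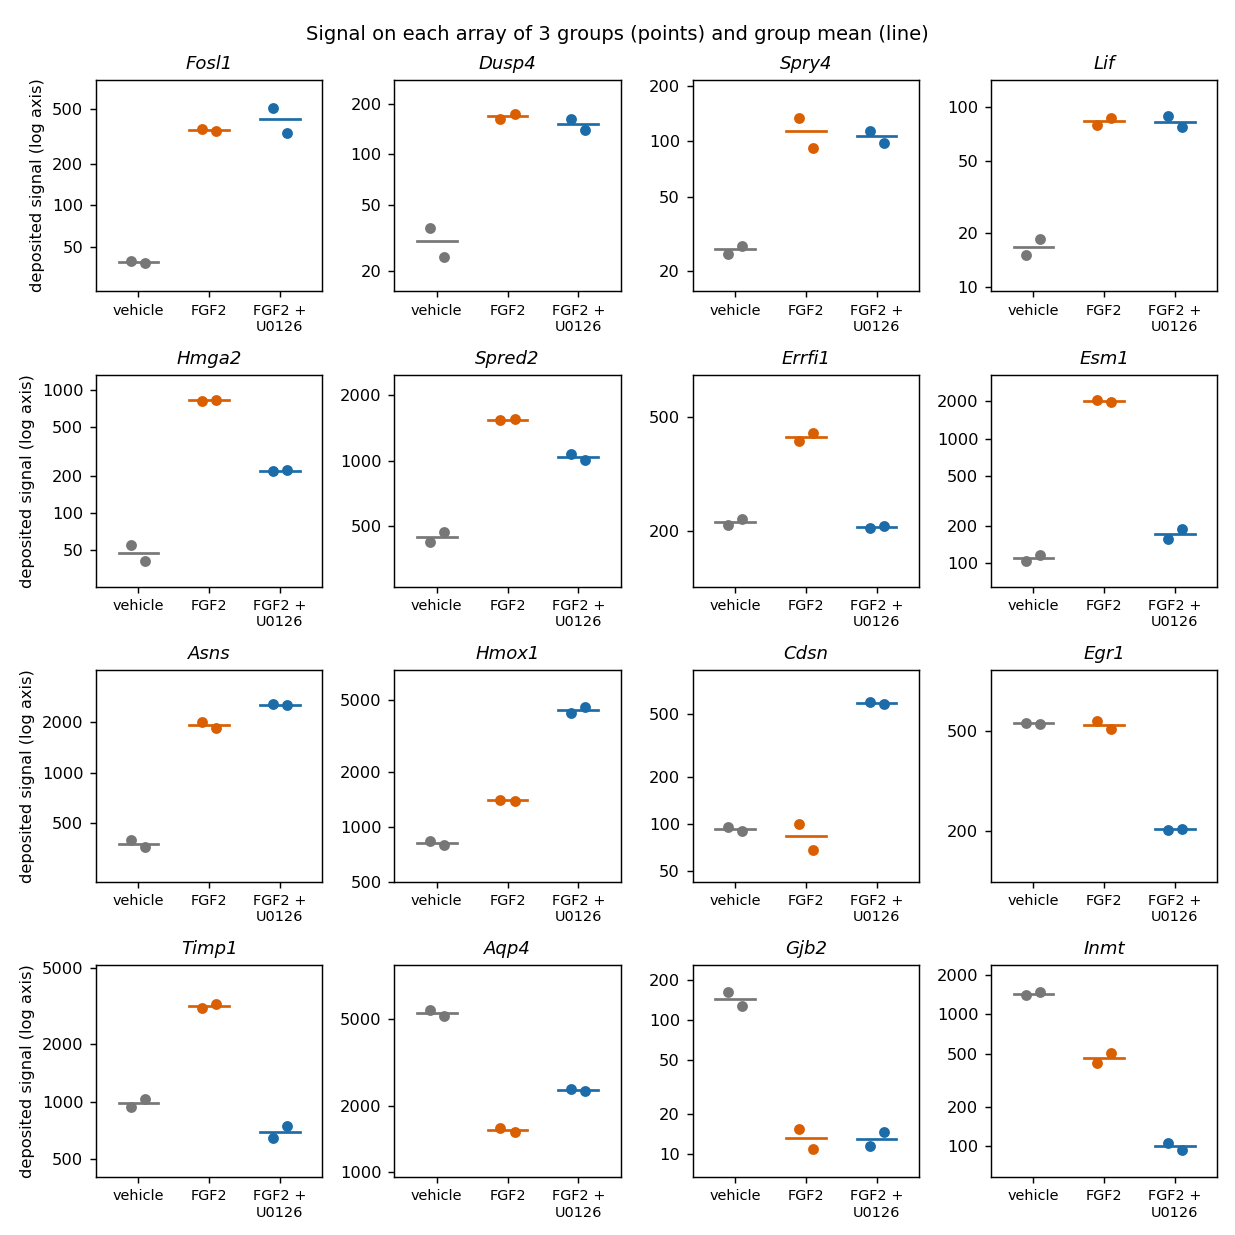
Deposited signal of 16 genes on each array of vehicle, FGF2 and FGF2 with U0126, on log axes that differ between panels. Points are arrays and lines are means of 2 arrays. The arrays of Fosl1, Dusp4, Spry4 and Lif lie far above vehicle in both FGF2 groups, and on the arrays with U0126 Errfi1 is near vehicle, Asns and Hmox1 are above both other groups, and Egr1 and Timp1 are below vehicle.

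Phosphatases of MAP kinases, not all of them selective for ERK, did not move as a block. In this list 10 members were measured, and 5 were higher and 1 lower with FGF2 and U0126, with a median log2 change of 0.47. Dusp4, a nuclear phosphatase of ERK, had 36.2 and 24.3 with vehicle, 164 and 174 with FGF2 and 162 and 141 with FGF2 and U0126. Its log2 change against vehicle was 2.42 ± 0.17 (limma adjusted p = 3.37e-07), and the difference from FGF2 alone was -0.18 (95% interval -0.55 to 0.20), which did not pass the test. Dusp6, the cytoplasmic phosphatase that is selective for ERK, had 258 and 258, 1174 and 1276 and 907 and 921. It was 1.81 ± 0.07 above vehicle and -0.43 from FGF2 alone (limma adjusted p = 0.00101), with both arrays between those of the other groups. Dusp1, a phosphatase of p38, JNK and ERK, was higher with U0126 than without it, with log2 changes against vehicle of 0.69 ± 0.07 and 0.27 ± 0.07. Dusp14 fell by 0.59 ± 0.09. Without replicate 1 of vehicle, or without replicate 2 of FGF2 with U0126, 3 members were called higher.

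Genes listed with the feedback inhibitors of receptors and of RAS were mixed too. Of 13 measured, 7 were higher and 2 lower than vehicle, with a median of 0.52, while FGF2 alone gave 11 higher, where the share of all genes was 18.9%, and 1 lower, where it was 19%. Median centring, averaged probe sets and leaving out replicate 2 of FGF2 with U0126 each gave 0 lower. The members called lower, Flrt3 and Lrig3, were not called with median centring, with averaged probe sets or at an adjusted p under 0.01. Against FGF2 alone 0 of the list were higher and 7 lower with U0126, beside 11.6% and 10.5% of all genes. The Sprouty proteins block RAS activation after receptor stimulation, and Spry4 had 24.8 and 27.4 with vehicle, 134 and 92.0 with FGF2 and 114 and 98.5 with FGF2 and U0126, a log2 change of 2.12 ± 0.21 (limma adjusted p = 7.17e-06). For Spry4 the arrays of FGF2 with and without U0126 interleave, and the difference was -0.073 (95% interval -0.53 to 0.39). Spry2 rose by 1.20 ± 0.10, with a difference from FGF2 alone of -0.083 (95% interval -0.29 to 0.12).

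Spry1 and the Spred genes, whose proteins hold RAF inactive, took an intermediate place. Spry1 had 115 and 133 with vehicle, 293 and 280.4 with FGF2 and 175 and 175 with FGF2 and U0126, which is 0.52 ± 0.11 above vehicle and -0.71 from FGF2 (limma adjusted p = 0.000633). Spred2 had 423 and 473, 1533 and 1554 and 1070.4 and 1012, or 1.19 ± 0.07 above vehicle, and Spred1 was 0.82 ± 0.10 above it. Both lay below FGF2 alone, by log2 differences of -0.57 and -0.54. Spred3, at 1.18 ± 0.14 above vehicle, did not differ from FGF2 alone past the threshold, with a 95% interval of -0.41 to 0.18.

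A further set was not called against vehicle. Errfi1, the feedback inhibitor of EGF receptors, had 209 and 220.2 with vehicle, 413 and 439.7 with FGF2 and 204 and 207 with FGF2 and U0126. Its log2 change against vehicle was -0.051 (95% interval -0.25 to 0.14), and against FGF2 alone it was -1.04 ± 0.09 (limma adjusted p = 4.56e-06). Rasa1, a GTPase activating protein for RAS, had a change of 0.13 (95% interval -0.043 to 0.31) and lay -0.60 from FGF2 alone. In both genes each array with U0126 was below each array of FGF2 alone.

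ETS transcription factors carry the ERK signal to promoters. Of 8 measured, 2 were higher and 0 lower than vehicle with FGF2 and U0126, and 5 were higher with FGF2 alone. Among all genes 16.7% were higher and 15% lower with U0126, and 18.9% were higher with FGF2 alone. The members that rose were 2 PEA3 subfamily factors that serve as readouts of FGF signalling in embryos. Etv5 had 373 and 359 with vehicle, 879 and 983 with FGF2 and 862 and 839 with FGF2 and U0126, a log2 change of 1.19 ± 0.08, with a difference from FGF2 of -0.14 (95% interval -0.32 to 0.043). Etv4 was near the floor with vehicle, at 1.67 and 4.45, and had 28.7 and 34.2 with FGF2 and U0126, a log2 change of 3.04 ± 0.47 that depends on the pseudocount and was 1.39, limma adjusted p = 0.00176 with one of 16. Elk3 and Ets1 rose with FGF2 alone, by 1.00 ± 0.10 and 0.84 ± 0.16, and were not called with U0126, at 0.25 ± 0.10 and 0.25 ± 0.16, with differences from FGF2 of -0.75 and -0.59 that passed the test. With median centring 5 of the 8 factors were called higher, Elk3 being at 0.47, limma adjusted p = 0.00308.

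Among AP-1 subunits 2 of 9 were higher and 4 lower, beside 16.7% and 15% of all genes. Besides Fosl1, which had 358 and 347 with FGF2 alone and a difference between both FGF2 groups of 0.23 (95% interval -0.11 to 0.57), the small MAF protein gene Maff rose by 1.08 ± 0.13. Fos, the founding immediate early gene, had 1212 and 1317 with vehicle, 627 and 627 with FGF2 and 384 and 471 with FGF2 and U0126, a log2 change of -1.60 ± 0.11 (limma adjusted p = 3.25e-07). It fell in the order vehicle, FGF2, FGF2 with U0126, with no overlap between groups. Junb followed the same order, at 138 and 135, 80.1 and 78.9 and 47.1 and 56.7, a log2 change of -1.32 ± 0.17, and Jund fell by 0.71 ± 0.12 but lay higher with U0126 than with FGF2 alone by 0.38 ± 0.12. Jund was not called once its probe sets were averaged, at -0.32. Fosl1 and Fos, members of the same family, thus moved in opposite directions against vehicle.

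Of 14 early response genes 2 were higher and 5 lower, beside 16.7% and 15% of all genes. Egr1, the zinc finger factor that ERK induces through serum response factor and ETS proteins, had 539.6 and 536 with vehicle, 549 and 509.9 with FGF2 and 201 and 205 with FGF2 and U0126. Its log2 change was -1.42 ± 0.09 with U0126 (limma adjusted p = 9.32e-08) and -0.050 ± 0.09 with FGF2 alone, which did not pass the test. Ier2 behaved alike, with 247 and 317, 282 and 276 and 107 and 96.6 and a log2 change of -1.43 ± 0.14 with U0126. Egr3 rose with FGF2 alone by 0.81 ± 0.25 and with U0126 was -1.41 from it (limma adjusted p = 0.0012), and it was not called against vehicle, at -0.61 ± 0.25. In contrast Ier3, a survival gene, had 443 and 506, 735 and 791 and 1275 and 1335 and rose by 1.45 ± 0.08, above FGF2 alone by 0.79 ± 0.08, and Myc rose by 0.51 ± 0.12. Without replicate 1 of vehicle or replicate 2 of FGF2 with U0126 3 members were called lower, and the list's median of -0.16 turned to 0.035 with median centring.

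**Figure D2:**
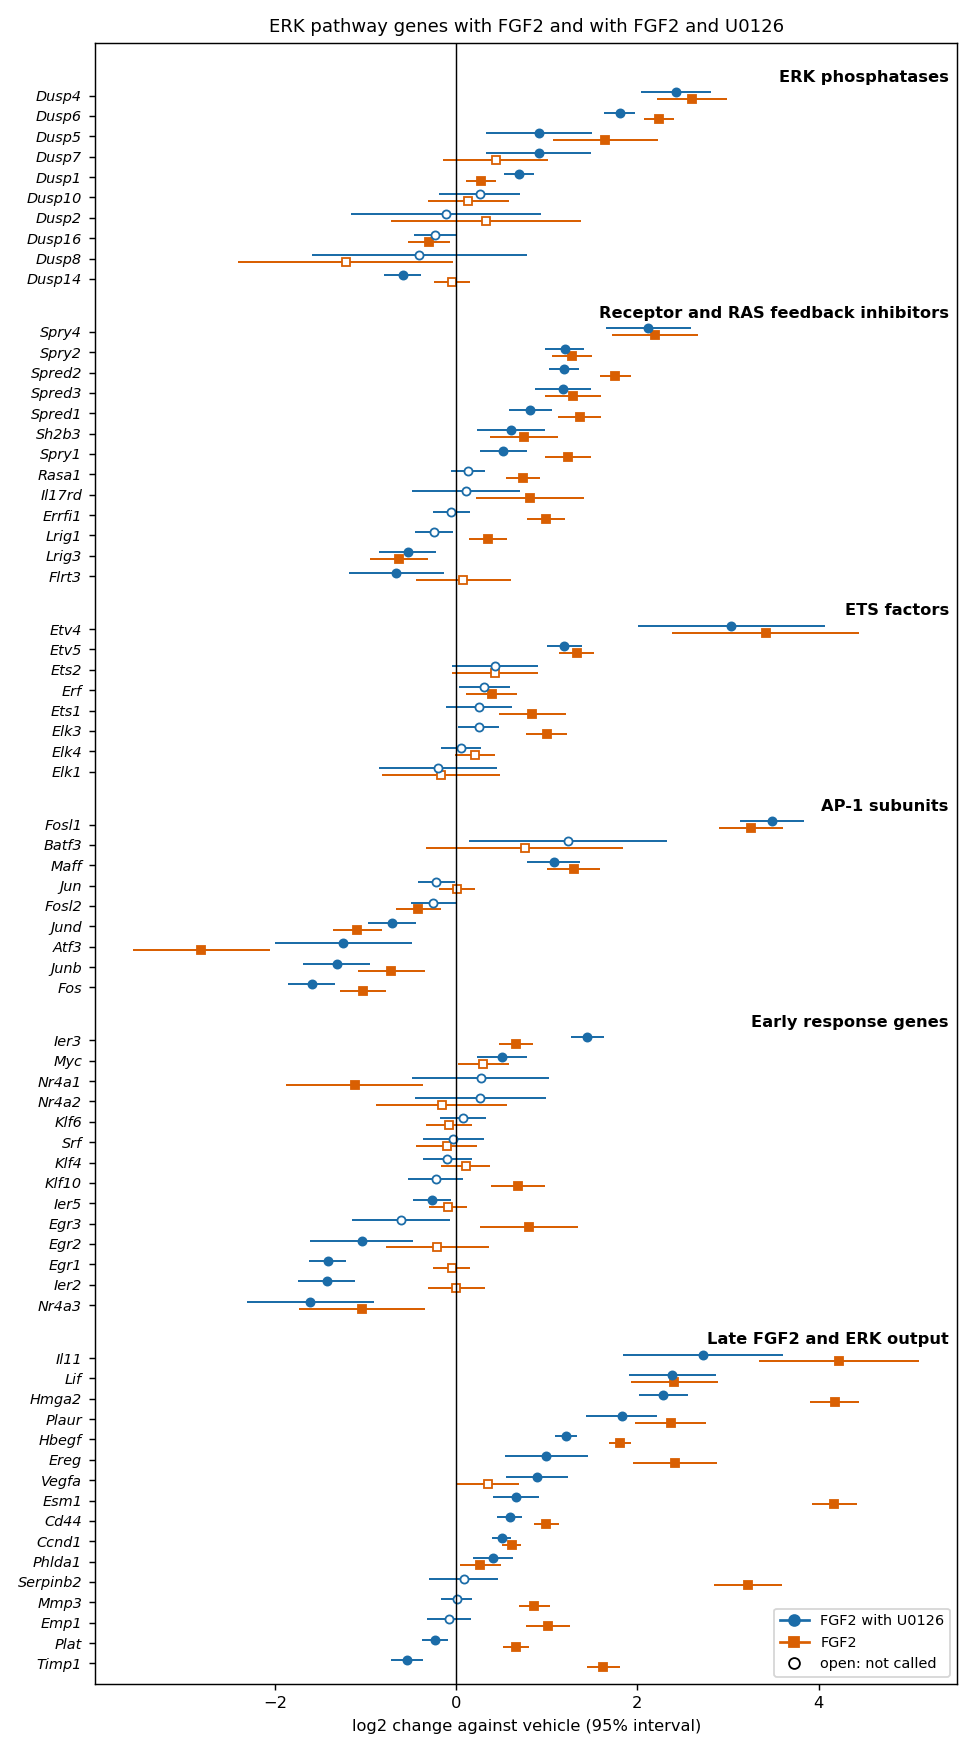
Log2 change against vehicle with its 95% interval for the measured members of 6 lists of ERK pathway genes, with FGF2 and U0126 in blue circles and with FGF2 alone in orange squares. Filled symbols are called at an adjusted p under 0.05. The symbols lie close together for Dusp4, Spry4, Spry2, Etv5 and Lif, and lie far apart for Errfi1, Elk3, Egr1, Esm1, Serpinb2 and Timp1.

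Secreted factors, proteases and growth regulators, the late output of FGF2 and ERK, were examined next. Of 16 measured members 11 were higher than vehicle with FGF2 and U0126 and 2 lower, with a median of 0.63, and FGF2 alone gave 15 higher and 0 lower, with a median of 1.72. Against FGF2 alone 12 were lower with U0126 and 1 higher. The cytokine Lif had 15.0 and 18.3 with vehicle, 79.6 and 87.2 with FGF2 and 88.7 and 77.3 with FGF2 and U0126, a log2 change of 2.38 ± 0.22 (limma adjusted p = 2.83e-06). Its difference from FGF2 alone was -0.025 (95% interval -0.49 to 0.44), and the arrays of both FGF2 groups interleave. Ccnd1, the cyclin of early G1, had 4334 and 4462, 7582 and 8348 and 6935 and 6411, a log2 change of 0.50 ± 0.04. Its arrays with U0126 lay below those of FGF2 alone.

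Other members stood above vehicle too, some of them below FGF2 alone. Hmga2, which encodes a high mobility group protein that binds DNA, had 54.9 and 40.3 with vehicle and 217 and 222 with FGF2 and U0126, a log2 change of 2.28 ± 0.12 (limma adjusted p = 2.17e-08), beside 820.1 and 830.5 with FGF2 alone. Hbegf, an EGF receptor ligand, was 1.21 ± 0.05 above vehicle and -0.59 from FGF2 alone. The cytokine Il11 was 2.72 ± 0.41 above vehicle, from 1.59 and 7.90 to 28.9 and 33.4 (a log2 change of 1.28 with a pseudocount of 16, as the vehicle signals were near the floor), and Plaur, the urokinase receptor, was 1.83 ± 0.18 above it. Cd44, the hyaluronan receptor, was 0.59 ± 0.06 above vehicle and below FGF2 alone by a log2 difference of -0.40.

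Esm1, Serpinb2, Emp1, Mmp3 and Timp1 rose with FGF2 alone and lay below that level with U0126 present. Esm1, a secreted proteoglycan, had 104 and 117 with vehicle, 2027 and 1975 with FGF2 and 156 and 188 with FGF2 and U0126, which is 0.66 ± 0.11 above vehicle and -3.51 from FGF2 alone (limma adjusted p = 1.46e-09). Serpinb2, which blocks plasminogen activators, had 25.3 and 31.5, 254 and 239 and 27.7 and 23.9 and was not called against vehicle, at 0.082 ± 0.17. Emp1 and the matrix protease Mmp3 were not called either, at -0.078 ± 0.11 and 0.0078 ± 0.07, and both were higher with FGF2 alone, by 1.02 ± 0.11 and 0.86 ± 0.07. Timp1, an inhibitor of matrix proteases, had 936 and 1041 with vehicle, 3094 and 3252 with FGF2 and 649 and 744 with FGF2 and U0126. It rose by 1.62 ± 0.08 with FGF2 alone and fell by 0.54 ± 0.08 with U0126 present (limma adjusted p = 0.000161), so its order of groups was FGF2, vehicle, FGF2 with U0126, with no overlap. The plasminogen activator Plat had a log2 change of -0.23 ± 0.06, a call that was lost without replicate 1 of vehicle (-0.16, limma adjusted p = 0.126) or replicate 2 of FGF2 with U0126 (-0.23, limma adjusted p = 0.0515) and a sign that turned with median centring (0.008, limma adjusted p = 0.957).

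AP-1 binds the letters TGANTCA, and these were searched on both strands in the RefSeq promoter windows of mouse build GRCm38.p6, from 250 bases before a start to 50 after it, of which 13596 belonged to 10616 of the genes tested. 7 of 15 windows of the late output genes held the letters, or 46.7%, beside 5.37% of all windows and 7 of 25 windows of the interferon-stimulated genes. Among members called higher than vehicle 3 of 9 windows held them, and among the other members 4 of 6. The 250 bases before a start of Lif and Plaur are shown because both genes stood above vehicle with U0126 and both hold a match. It is printed in capitals and starts -228 and -69 bases from the start. Such a match is a description of the sequence and not a measured site. Lif lies on the plus strand at chr11:4257318-4257567 and Plaur on the plus strand at chr7:24462233-24462482.
Lif: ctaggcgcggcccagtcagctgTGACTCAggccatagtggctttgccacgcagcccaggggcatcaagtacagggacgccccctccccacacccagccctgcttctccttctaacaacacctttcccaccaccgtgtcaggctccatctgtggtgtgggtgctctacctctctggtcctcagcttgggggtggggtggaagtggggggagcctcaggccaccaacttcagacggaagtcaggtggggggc
Plaur: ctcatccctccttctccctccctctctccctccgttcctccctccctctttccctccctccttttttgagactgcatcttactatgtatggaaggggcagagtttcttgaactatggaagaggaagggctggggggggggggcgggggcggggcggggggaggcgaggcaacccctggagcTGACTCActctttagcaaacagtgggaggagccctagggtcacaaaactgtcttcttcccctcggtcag

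Genes of the cell cycle were taken by phase. Of 19 G1 cyclins, kinases and inhibitors 7 were higher and 6 lower than vehicle, beside 16.7% and 15% of all genes. Cdk4, the kinase partner of cyclin D1, had 728 and 758 with vehicle and 1028 and 1073 with FGF2 and U0126, a log2 change of 0.46 ± 0.07, with a 95% interval of the difference from FGF2 alone of -0.17 to 0.11. E2f1 and E2f3, transcription factors of S phase genes, rose by 0.73 ± 0.11 and 0.84 ± 0.15. Ccne2, an E-type cyclin, had 71.8 and 61.5, 209 and 196 and 59.7 and 86.1, was not called against vehicle at 0.19 ± 0.18, and lay -1.48 from FGF2 alone (limma adjusted p = 6.9e-05). The CDK inhibitors Cdkn2c, Cdkn1b and Cdkn1c fell by 0.78 ± 0.12, 0.57 ± 0.09 and 0.95 ± 0.23. With all probe sets of a gene averaged 3 of the list were called higher, and the call of E2f1 and of Cdkn1b was lost.

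DNA replication genes were higher than vehicle in 12 of 33 cases and lower in 1, with a median of 0.30, beside 29 higher with FGF2 alone and a median of 0.88. Cdt1, which loads the helicase at origins, had 143 and 132 with vehicle, 605 and 589 with FGF2 and 451 and 451 with FGF2 and U0126, a log2 change of 1.71 ± 0.08 (limma adjusted p = 1.28e-08). The helicase subunits differed among themselves. Mcm2 and Mcm5 rose by 1.05 ± 0.12 and 0.89 ± 0.10, and Mcm3 and Mcm7 by 0.70 ± 0.12 and 0.30 ± 0.07. Mcm6, in contrast, had 332 and 319, 850.5 and 707 and 333 and 329 and was not called against vehicle, with a 95% interval of -0.21 to 0.22. Against FGF2 alone 20 members were lower and 0 higher. Rrm2, a subunit of ribonucleotide reductase, rose by 1.48 ± 0.08 with FGF2 alone and was -0.25 ± 0.08 from vehicle with U0126, a call that was lost without replicate 1 of vehicle (-0.22, limma adjusted p = 0.114), replicate 2 of vehicle (-0.27, limma adjusted p = 0.0606) or replicate 1 of FGF2 with U0126 (-0.21, limma adjusted p = 0.12), or with median centring (-0.013, limma adjusted p = 0.935). With the mean of its probe sets Mcm7 was not called, at 0.17.

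Mitosis genes were called higher in 5 of 31 cases and lower in 1, with a median of -0.20, and FGF2 alone raised 22. The members called higher were Bub1b, Tpx2, Anln, Cdk1 and Mad2l1, a share close to the 16.7% of all genes. The number called higher was 2 without replicate 2 of FGF2 with U0126 and 3 without replicate 2 of vehicle or replicate 1 of FGF2 with U0126, and without replicate 2 of FGF2 with U0126 the median was 0.0012. With the mean of the probe sets of a gene 1 of 25 was called higher and 1 lower; Bub1b, Tpx2, Anln and Mad2l1 lost the call, Bub1b and Tpx2 being at -0.072 and -0.072. Cdk1, the mitotic kinase, had 205 and 232 with vehicle, 425 and 439.9 with FGF2 and 284 and 313 with FGF2 and U0126, a log2 change of 0.45 ± 0.10. Mki67, the proliferation marker, had 48.8 and 36.0, 108 and 121 and 29.5 and 35.9 and was not called against vehicle, at -0.20 ± 0.22. Ccna2, the cyclin of S phase and G2, and Top2a, which untangles DNA, were not called either, at -0.094 ± 0.16 and -0.019 ± 0.15. Against FGF2 alone 22 of the list were lower with U0126 and 0 higher.

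Ribosome biogenesis genes, which process ribosomal RNA in the nucleolus, stood above vehicle in 24 of 26 cases, with 0 lower and a median of 0.73. FGF2 alone raised 21 with a median of 0.70. Fbl, the methyltransferase fibrillarin, had 359 and 360.4 with vehicle, 939 and 925 with FGF2 and 683 and 853 with FGF2 and U0126, a log2 change of 1.06 ± 0.09 (limma adjusted p = 1.3e-06). Npm1, or nucleophosmin, rose by 0.55 ± 0.05, with a 95% interval of the difference from FGF2 alone of -0.22 to 0.011. Nip7 and Gnl3, or nucleostemin, were higher with U0126 than without it, by 0.37 ± 0.08 and 0.32 ± 0.07, while Fbl was lower by a log2 difference of -0.30. Against FGF2 alone 6 of the list were higher and 2 lower.

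**Figure D3:**
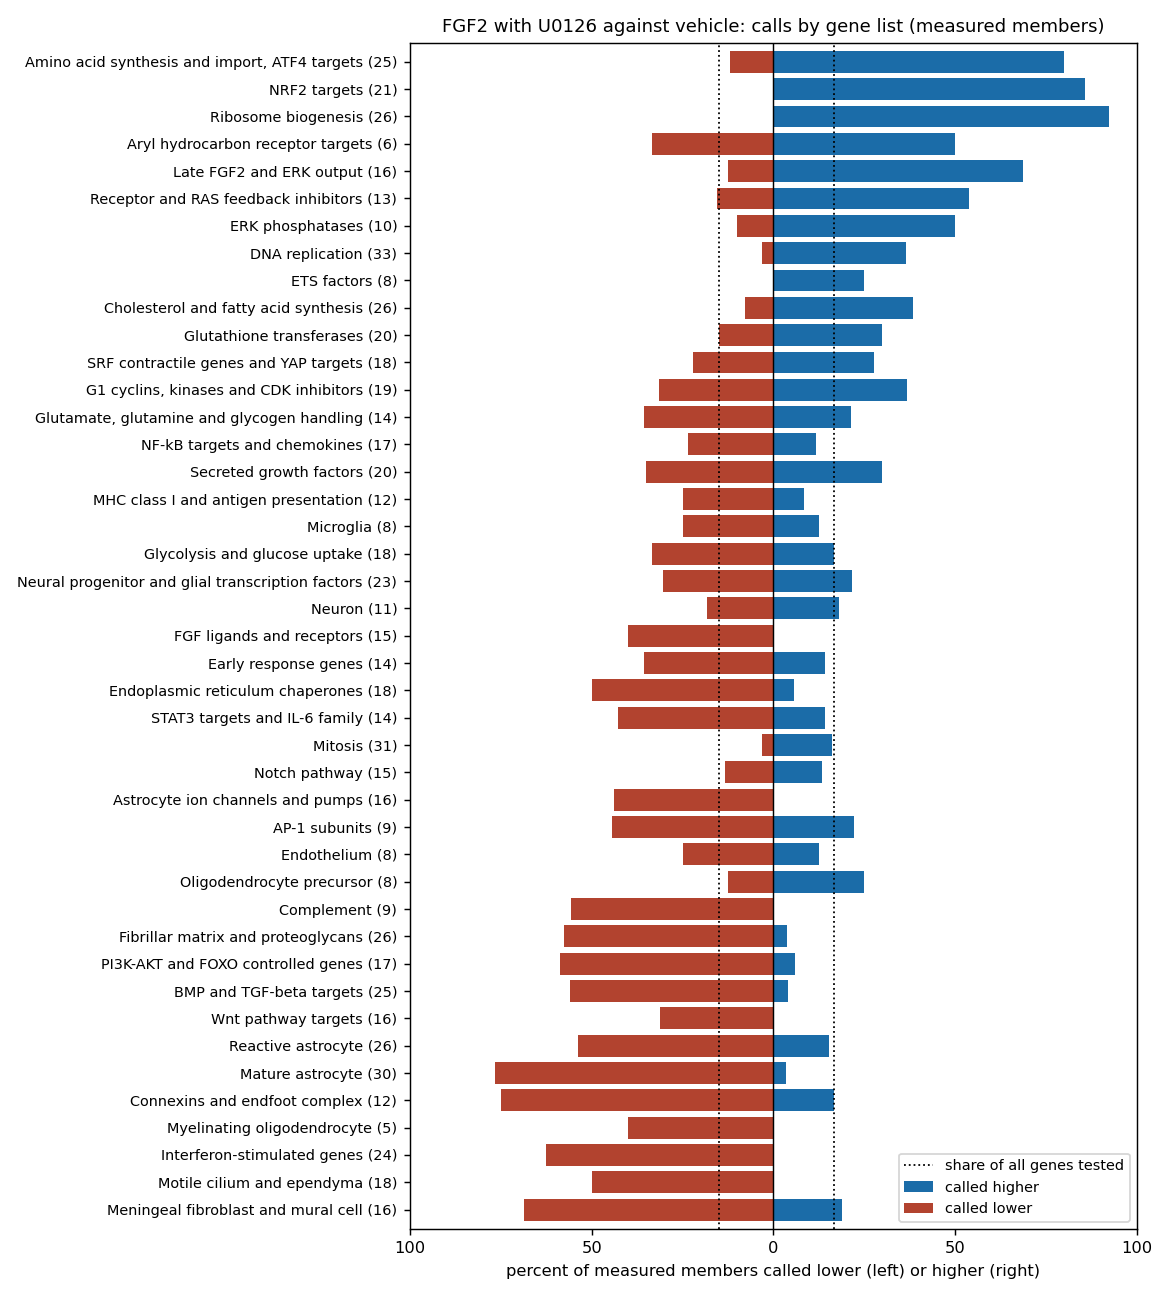
Percent of the measured members of each of 43 gene lists called higher (blue, right) or lower (red, left) with FGF2 and U0126 against vehicle, with the number measured in parentheses and dotted lines at the share of all genes tested, 16.7% higher and 15% lower. Lists are ordered by their median log2 change; the lists of amino acid, NRF2 and ribosome genes are at the top and the fibroblast and cilium lists at the bottom.

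Genes of amino acid synthesis and import, most of them targets of ATF4, the transcription factor of the integrated stress response, were higher than vehicle for 20 of 25 members and lower for 3, with a median of 1.40. FGF2 alone raised 14 and lowered 4, with a median of 0.72, and against FGF2 alone 17 were higher with U0126 and 0 lower. Asns, or asparagine synthetase, had 397 and 360.3 with vehicle, 2016 and 1854 with FGF2 and 2556 and 2535 with FGF2 and U0126. Its log2 change was 2.75 ± 0.09 (limma adjusted p = 2.52e-10), and it lay above FGF2 alone by 0.44 ± 0.09 (limma adjusted p = 0.00273). The 3 groups do not overlap, and the arrays with U0126 are the highest.

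The transporters of large neutral and of cationic amino acids, Slc7a5 and Slc7a1, rose by 2.54 ± 0.09 and 2.38 ± 0.15, and both exceeded FGF2 alone, by 0.47 ± 0.09 and 0.63 ± 0.15. Aldh18a1, an enzyme of proline synthesis, had 257 and 243, 762 and 723 and 1032 and 958, a log2 change of 1.98 ± 0.08, and the transcription factor Atf5 rose by 2.01 ± 0.07. The serine synthesis gene Phgdh and the list member Shmt2 rose by 1.40 ± 0.07 and 1.45 ± 0.07. Their 95% intervals of the difference from FGF2 alone were 0.013 to 0.29 and 0.042 to 0.36. The amino acid genes thus held members above the FGF2 level and members that were not called against it.

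A smaller set was raised with U0126 and not with FGF2 alone. Trib3, a pseudokinase that ATF4 and CHOP induce, had 32.3 and 19.6 with vehicle, 20.8 and 2.74 with FGF2 and 181 and 89.6 with FGF2 and U0126, a log2 change of 2.42 ± 0.60. The call of Trib3 was lost without replicate 2 of vehicle (2.10, limma adjusted p = 0.0614) or replicate 1 of FGF2 with U0126 (1.94, limma adjusted p = 0.0916). Ddit3, which encodes CHOP, had 249 and 236, 235 and 277 and 683 and 599, a log2 change of 1.39 ± 0.11, but the mean of its probe sets gave -0.45, limma adjusted p = 0.146. Atf4 itself rose by 0.82 ± 0.15, a call lost with the mean of its probe sets (0.45, limma adjusted p = 0.122), and 0.18 ± 0.15 with FGF2 alone did not pass the test. Slc7a11, the cystine importer, is held by the NRF2 list too and rose by 1.40 ± 0.13, while Slc38a2, an amino acid transporter, fell by 0.78 ± 0.09.

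Of the RefSeq promoter windows of this list 8 of 27 held the C/EBP-ATF response letters TGATGNAA on either strand, or 29.6%, beside 2.22% of all windows. Asns and Nupr1 are shown because both rose and hold the letters once, in capitals, starting -23 and -110 bases from the start. Nupr1, a small chromatin protein of the stress response, rose by 1.63 ± 0.09. Both genes lie on the minus strand, Asns at chr6:7693210-7693459 and Nupr1 at chr7:126625471-126625720.
Asns: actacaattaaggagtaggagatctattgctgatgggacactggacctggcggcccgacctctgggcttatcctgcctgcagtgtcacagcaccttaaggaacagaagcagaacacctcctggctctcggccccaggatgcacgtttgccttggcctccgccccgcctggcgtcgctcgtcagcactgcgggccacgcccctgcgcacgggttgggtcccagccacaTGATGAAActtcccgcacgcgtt
Nupr1: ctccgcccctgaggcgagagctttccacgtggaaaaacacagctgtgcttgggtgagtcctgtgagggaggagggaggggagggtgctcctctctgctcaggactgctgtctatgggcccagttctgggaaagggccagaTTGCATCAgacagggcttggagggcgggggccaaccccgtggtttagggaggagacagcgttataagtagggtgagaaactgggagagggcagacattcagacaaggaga

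Endoplasmic reticulum chaperones had more called members below vehicle than above it. Of 18 measured 1 was higher and 9 were lower than vehicle, with a median of -0.17. That median turned to 0.069 with median centring, where 5 were called lower and 2 higher. FGF2 alone raised 7 and lowered 1, and against FGF2 alone 0 were higher with U0126 and 12 lower. Calr, or calreticulin, had 2517 and 2573 with vehicle, 2473 and 2806 with FGF2 and 1654 and 1639.9 with FGF2 and U0126, a log2 change of -0.66 ± 0.06 (limma adjusted p = 1.97e-06). Hsp90b1 and Pdia4, a chaperone and a disulfide isomerase, fell by 0.52 ± 0.06 and 0.64 ± 0.12, the latter not called with the mean of its probe sets, at -0.71. Hspa5, the chaperone BiP, rose by 0.41 ± 0.06 with FGF2 alone and was -0.19 ± 0.06 from vehicle with U0126, a call that was lost without replicate 1 of vehicle (-0.089, limma adjusted p = 0.294) or replicate 2 of FGF2 with U0126 (-0.16, limma adjusted p = 0.136) and that median centring turned to 0.11, limma adjusted p = 0.333.

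Targets of NRF2, the transcription factor that answers to oxidants and electrophiles, rose for 18 of 21 members and fell for 0, with a median of 1.01. FGF2 alone raised 11 and lowered 2, with a median of 0.32, and against FGF2 alone 18 were higher with U0126 and 1 lower. Hmox1, or heme oxygenase 1, had 832 and 799 with vehicle, 1409.7 and 1396 with FGF2 and 4264 and 4598 with FGF2 and U0126. Its log2 change was 2.41 ± 0.06 (limma adjusted p = 3.08e-11), against 0.75 ± 0.06 with FGF2 alone, and its arrays with U0126 lay above those of vehicle and of FGF2 alone. Srxn1, or sulfiredoxin, had 633 and 622, 1157 and 1137 and 2646 and 2703, a log2 change of 2.08 ± 0.06.

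Gclm, the regulatory subunit of the rate-limiting enzyme of glutathione synthesis, had 717 and 738 with vehicle and 2599.6 and 2392 with FGF2 and U0126, a log2 change of 1.75 ± 0.07 (limma adjusted p = 1.99e-09). Its catalytic partner Gclc was not called, at 0.10 ± 0.06. Nqo1, a quinone reductase, had 211 and 211, 188 and 199 and 634 and 717, a log2 change of 1.67 ± 0.10 with U0126, and -0.10 ± 0.10 with FGF2 alone did not pass the test. Blvrb, a biliverdin reductase, was likewise highest on the arrays with U0126, with 311 and 312, 327 and 365 and 876 and 975. Txnrd1, or thioredoxin reductase 1, rose by 1.39 ± 0.05, the pentose phosphate enzymes Taldo1 and Pgd by 1.06 ± 0.06 and 0.63 ± 0.05, and Cat, or catalase, by 0.51 ± 0.07. Fth1, the ferritin heavy chain, and Ephx1, an epoxide hydrolase, were not called, at 0.0046 ± 0.06 and -0.059 ± 0.05.

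The antioxidant response element core, TGACNNNGC, was found on either strand in 5 of 23 of the list's promoter windows, or 21.7%, and in 14.0% of all windows. The same letters were found in 7 of 27 windows of the amino acid list, 7 of 32 of the DNA replication list and 5 of 25 of the interferon list. Txnrd1, on the plus strand at chr10:82858956-82859205, and Gclm, on the plus strand at chr3:122245307-122245556, are shown as members that rose and hold the letters, which lie on the opposite strand and start -92 and -134 bases from the start, in capitals.
Txnrd1: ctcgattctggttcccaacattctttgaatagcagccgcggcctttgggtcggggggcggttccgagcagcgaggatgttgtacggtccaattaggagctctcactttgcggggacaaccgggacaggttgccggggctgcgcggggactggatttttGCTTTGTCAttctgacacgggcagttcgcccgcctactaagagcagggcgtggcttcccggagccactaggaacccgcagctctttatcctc
Gclm: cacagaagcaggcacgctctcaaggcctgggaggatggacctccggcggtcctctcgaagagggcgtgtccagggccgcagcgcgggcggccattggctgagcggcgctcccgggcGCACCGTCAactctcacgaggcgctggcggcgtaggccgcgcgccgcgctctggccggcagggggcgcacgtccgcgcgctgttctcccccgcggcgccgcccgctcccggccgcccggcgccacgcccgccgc

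**Figure D4:**
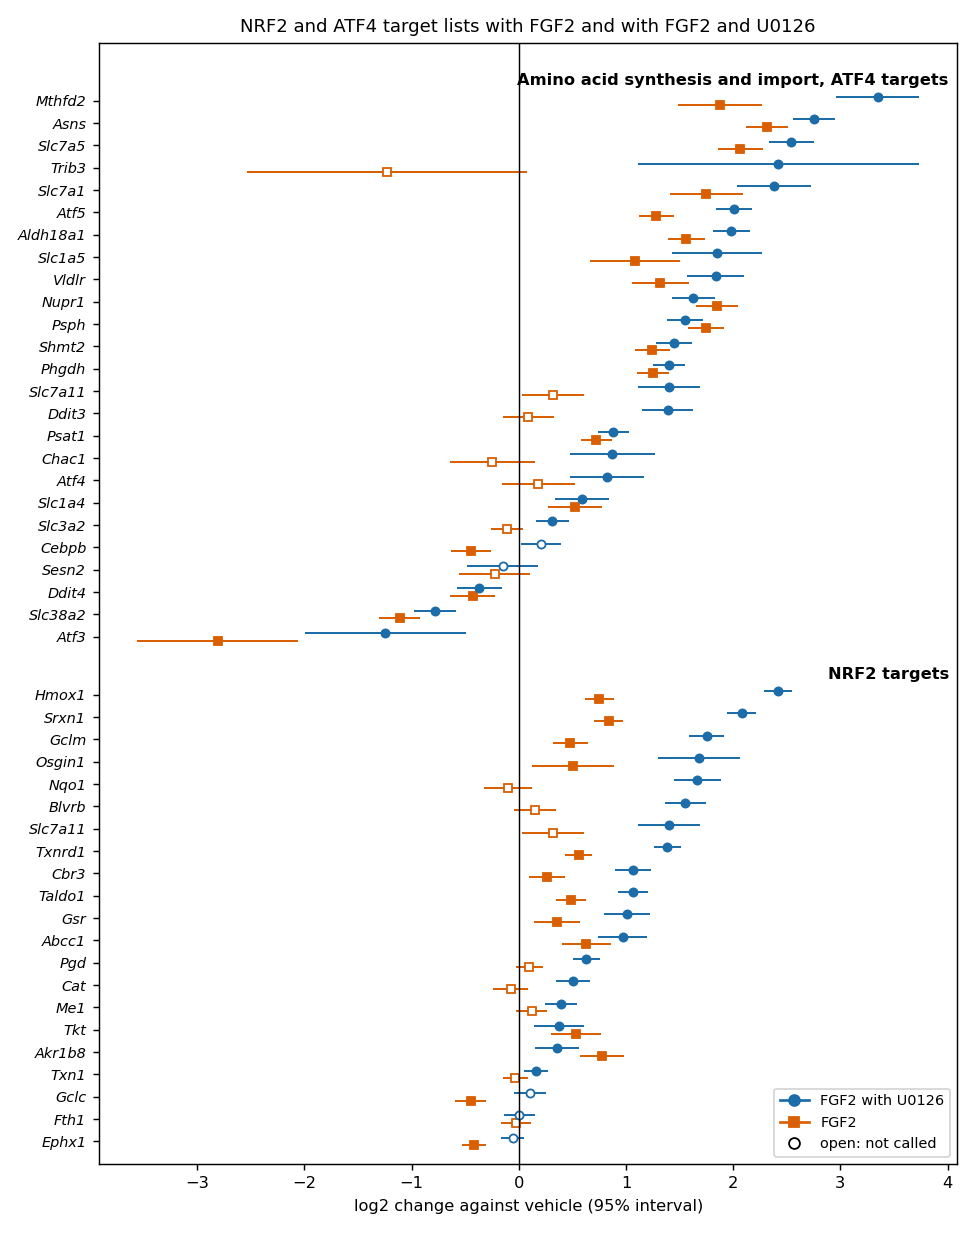
Log2 change against vehicle with its 95% interval for the measured NRF2 targets and ATF4 targets, with FGF2 and U0126 in blue circles and with FGF2 alone in orange squares; filled symbols are called. For Hmox1, Nqo1, Blvrb and Trib3 the blue symbols lie far to the right of the orange ones, and for Psph, Phgdh and Nupr1 they lie close together.

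Glutathione transferases, which couple glutathione to electrophiles, were higher than vehicle in 6 of 20 cases and lower in 3. The shares of all genes were 16.7% and 15%. Probe sets of this family can bind several of its near-identical members, so the identity of a member is uncertain. Gsta3 and Gsta2 of the alpha class rose by 1.95 ± 0.23 and 1.91 ± 0.50, and Gsta2, at 13.9 and 11.8 with vehicle and 40.6 and 50.1 with FGF2 and U0126, lost its call without replicate 2 of FGF2 with U0126 (1.74, limma adjusted p = 0.0801). Gsta3 was not called with the mean of its probe sets, at 0.35. Gsta4 had 2119.8 and 2341, 1792 and 1783 and 3335 and 3252, above vehicle by 0.53 ± 0.05 with U0126 and below it with FGF2 alone, at -0.38 ± 0.05. Gstm1, of the mu class, fell with FGF2 alone by 0.63 ± 0.04 and was not called with U0126, at 0.076 ± 0.04.

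Of 6 genes controlled by the aryl hydrocarbon receptor, a sensor of aromatic compounds, or part of it, 3 were higher and 2 lower. The target genes Cyp1a1, Cyp1a2 and Ahrr lay below the filter, and with no filter 4 of 9 were higher and 2 lower. Cyp1b1, a monooxygenase, had 1815 and 1763 with vehicle, 996 and 1042 with FGF2 and 2733 and 2653 with FGF2 and U0126, above vehicle by 0.57 ± 0.06 with U0126 and at -0.85 ± 0.06 with FGF2 alone. Tiparp, which modifies the receptor, rose by 0.76 ± 0.07, with 604 and 618, 629 and 599.7 and 1067 and 1053. The receptor's own gene Ahr fell by 1.14 ± 0.10 and that of its partner Arnt by 0.87 ± 0.18. Nqo1 belongs to this list and the NRF2 list. With all probe sets of a gene averaged the calls of Cyp1b1, Ahr and Arnt were lost, with log2 changes of 0.38, -0.97 and -0.13.

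In metabolism, 10 of 26 cholesterol and fatty acid synthesis genes were higher and 2 lower than vehicle, with 15 and 0 under median centring and 5 and 1 with the mean of the probe sets. The elongase Elovl6 rose by 1.25 ± 0.14 and Insig1, the sterol sensor, by 0.77 ± 0.08. Of 18 glycolysis genes 3 were higher and 6 lower, beside 16.7% and 15% of all genes. Their median was -0.11, whereas median centring gave 6 higher and 1 lower with a median of 0.17. Pfkfb3, whose product activates phosphofructokinase, had 377 and 367 with vehicle, 241 and 219 with FGF2 and 689 and 591 with FGF2 and U0126. It fell by 0.68 ± 0.10 with FGF2 alone and rose by 0.76 ± 0.10 with U0126 present (limma adjusted p = 7.77e-05). Hexokinase 2, Hk2, rose by 1.13 ± 0.12, and the platelet type phosphofructokinase Pfkp fell by 1.04 ± 0.06.

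Genes of the mature astrocyte stood below vehicle in 23 of 30 cases and above it in 1, with a median of -0.47, and with median centring 14 were called lower and 3 higher. FGF2 alone lowered 25, with a median of -0.75, and against FGF2 alone 17 were higher with U0126 and 1 lower. Aqp4, the water channel of astrocyte endfeet, had 5502 and 5179 with vehicle, 1592 and 1523 with FGF2 and 2389 and 2351 with FGF2 and U0126. Its log2 change was -1.29 ± 0.06 (limma adjusted p = 5.24e-09), and it lay above FGF2 alone by 0.63 ± 0.06 (limma adjusted p = 6.34e-06), with the 3 groups apart. The potassium channel Kcnj10 showed the same order, at 788 and 865, 268 and 323 and 541 and 429.9, a log2 change of -0.80 ± 0.12.

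The connexins of astrocyte gap junctions differed in this respect. Gjb2, or connexin 26, had 161 and 128 with vehicle, 15.3 and 10.8 with FGF2 and 11.4 and 14.5 with FGF2 and U0126, a log2 change of -3.23 ± 0.36 (limma adjusted p = 1.9e-05), and its difference from FGF2 alone was 0.024 (95% interval -0.76 to 0.81). Gjb6, or connexin 30, had 88.9 and 75.8, 9.51 and 9.54 and 11.0 and 7.10, a log2 change of -2.82 ± 0.44, with an interval of -0.95 to 0.93 for the difference. For both genes the FGF2 groups interleave far below vehicle, at signals where the pseudocount matters, and with one of 16 the changes were -2.41 and -1.88. Gja1, or connexin 43, had 4574 and 4709, 2123 and 2146 and 2941 and 2642, fell by 0.85 ± 0.06, and lay above FGF2 alone by 0.42 ± 0.06 (limma adjusted p = 0.000159). Of 12 measured genes of connexins and the endfoot complex 9 were lower and 2 higher than vehicle. Their median was -0.51, and their log2 changes reached 1.09.

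Glutamate handling was likewise mixed. Of 14 measured genes of glutamate, glutamine and glycogen handling 3 were higher and 5 lower than vehicle, with a median of -0.013. The shares of all genes were 16.7% and 15%. Slc7a11, given above, is a member of this list too and rose by 1.40. The transporter Slc1a2 had 655 and 568, 369 and 334 and 388 and 337 and fell by 0.79 ± 0.10, with a 95% interval of the difference from FGF2 alone of -0.19 to 0.25, and Glul, or glutamine synthetase, fell by 0.77 ± 0.07. The mean of the probe sets of Slc1a2 gave -0.37, which was not called. Slc1a3, the other astrocyte transporter, fell with FGF2 alone by 0.46 ± 0.06 and was not called with U0126, at 0.017 ± 0.06 (95% interval -0.12 to 0.16). Pygb, the glycogen phosphorylase of brain, and Ppp1r3c, a scaffold of glycogen synthesis, fell by 1.29 ± 0.08 and 1.29 ± 0.09.

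Among reactive astrocyte genes 4 of 26 were higher and 14 lower, beside 16.7% and 15% of all genes, with a median of -0.47. Gfap fell by 0.40 ± 0.06, a change that median centring reduced to -0.13, limma adjusted p = 0.264, and Synm, the intermediate filament protein synemin, fell by 2.13 ± 0.28. Clcf1, a cytokine of the IL-6 family, had 181 and 163 with vehicle, 1047 and 988 with FGF2 and 932 and 736 with FGF2 and U0126, a log2 change of 2.27 ± 0.12 (limma adjusted p = 1.47e-08), and Nes, or nestin, rose by 0.65 ± 0.12.

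Transcription factors of neural progenitors and glia gave 5 higher and 7 lower of 23, with a median of -0.12, and 6 higher and 4 lower with a median of 0.020 under median centring. Without that centring the shares of all genes were 16.7% higher and 15% lower. Olig2, the factor of the oligodendrocyte lineage, had 239 and 259 with vehicle, 874 and 941 with FGF2 and 1027 and 1026 with FGF2 and U0126, a log2 change of 2.03 ± 0.08 (limma adjusted p = 1.2e-09). Its difference from FGF2 alone was 0.17 (95% interval 0.0092 to 0.34). Olig1, a related factor, rose less, by 0.43 ± 0.06, and lay -0.49 from FGF2 alone. Among other oligodendrocyte precursor markers Pdgfra fell by 0.76 ± 0.16, a call lost with the mean of its probe sets (-0.41, limma adjusted p = 0.157), and Sox10 and Cspg4 were not called, at -0.41 ± 0.32 and -0.40 ± 0.66. Of the 8 measured precursor markers 2 were higher, 1 was lower and 5 were not called, with a median of -0.34. Their summed signal, which includes Olig1 and Olig2, was 2339.9 and 2329 with vehicle and 3491 and 3626 with FGF2 and U0126. The part of precursor cells in the result was not tested. Hes1, a target of Notch, rose by 0.91 ± 0.11, and Pax6 fell by 0.70 ± 0.08 with U0126, while with FGF2 alone it had -0.020 ± 0.08. With the mean of its probe sets Pax6 was not called, at -0.39.

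Genes of motile cilia and of ependyma were lower in 9 of 18 cases and higher in 0, with a median of -0.66, while FGF2 alone lowered 13, with a median of -1.16. Foxj1, the master regulator of motile cilia, had 789 and 802 with vehicle, 380.3 and 337 with FGF2 and 463 and 513 with FGF2 and U0126, a log2 change of -0.74 ± 0.09. Rsph4a, a radial spoke protein, had 288 and 291, 34.3 and 24.4 and 96.9 and 70.2, a log2 change of -1.77 ± 0.23, above FGF2 alone by 1.42 ± 0.23. The arrays with U0126 lay between the other groups for both genes. Ttr, another defining marker of ependyma, had 2533 and 2620 with vehicle and 3140 and 1900 with FGF2 and U0126, so its groups overlap. The summed signal of the list, which includes Ttr, was 8121 and 8367 with vehicle and 6558 and 5289 with FGF2 and U0126. The part of ependymal cells in the result was not tested.

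Fibrillar matrix and proteoglycan genes were lower in 15 of 26 cases and higher in 1, and with median centring 8 were lower and 4 higher. Col1a1, a chain of type I collagen, had 743 and 664 with vehicle and 381 and 320.3 with FGF2 and U0126, a log2 change of -1.05 ± 0.13, and Dcn, the proteoglycan decorin, fell by 1.13 ± 0.07. Lum, or lumican, had 549 and 572, 569 and 613 and 267 and 306 and fell by 1.00 ± 0.10 with U0126, where 0.048 ± 0.10 with FGF2 alone did not pass the test. Tnc, or tenascin C, rose by 0.63 ± 0.10, beside 1.73 ± 0.10 with FGF2 alone. Of 16 markers of meningeal fibroblasts and mural cells, 7 of which are also members of the matrix list, 11 were lower and 3 higher, and their summed signal was 26963 and 26153 with vehicle and 22133 and 22149 with FGF2 and U0126. Without replicate 2 of vehicle or of FGF2 with U0126 1 of these markers was higher. The part of these cells in the result was not tested.

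Of 24 interferon-stimulated genes 15 fell and 0 rose, with a median of -0.56, and FGF2 alone lowered 19. Ifit1, an antiviral RNA-binding protein, had 619 and 745 with vehicle, 270.2 and 249 with FGF2 and 288 and 335 with FGF2 and U0126, a log2 change of -1.17 ± 0.11 (limma adjusted p = 4.89e-06), with a 95% interval of the difference from FGF2 alone of -0.0007 to 0.48. Irf7, the interferon regulatory factor, fell by 1.06 ± 0.20, whereas Bst2, or tetherin, fell with FGF2 alone by 0.69 ± 0.09 and was not called with U0126, at -0.062 ± 0.09. The core of the interferon-stimulated response element, on either strand, was present in 14 of 25 of this list's promoter windows, or 56.0%, and in 2.91% of all windows.

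Several lists of signalling genes outside the ERK route had more members below vehicle than above it. Of 17 genes that AKT restrains through FOXO factors, or that belong to that route, 10 were lower and 1 higher, with a median of -0.36, and FGF2 alone lowered 12. Fbxo32, a ubiquitin ligase subunit, had 253 and 280.2 with vehicle, 89.4 and 87.9 with FGF2 and 77.6 and 74.1 with FGF2 and U0126, a log2 change of -1.77 ± 0.14. Pik3ip1, an inhibitor of phosphoinositide 3-kinase, and the sestrin Sesn1 fell by 1.18 ± 0.07 and 1.06 ± 0.08, further than with FGF2 alone, by -0.64 and -0.59 on the log2 scale. Txnip, a glucose-responsive arrestin, fell by 2.15 ± 0.08, from 2279 and 2206 to 503 and 537.

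Of 14 genes of STAT3 and the IL-6 family 2, the ligands Lif and Clcf1, were higher and 6 lower. Among all genes 16.7% were higher and 15% lower. The receptor subunits moved the other way from these ligands: Osmr had 1905 and 1788, 1244 and 1313 and 832 and 922 and fell by 1.13 ± 0.07, and Il6st and Lifr fell by 1.01 ± 0.09 and 1.40 ± 0.16, the latter not called with the mean of its probe sets, at -0.83. Socs3, the feedback inhibitor of this pathway, had 877 and 1062, 460.3 and 369 and 312 and 295 and fell by 1.70 ± 0.20. Stat3 fell by 1.01 ± 0.07, and with the mean of its probe sets it was at -0.41, limma adjusted p = 0.07.

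BMP and TGF-beta genes were lower in 14 of 25 cases and higher in 1, with 9 lower and 3 higher under median centring. Tgfbi, which TGF-beta induces and the matrix holds, had 473 and 413 with vehicle, 485 and 476 with FGF2 and 83.7 and 90.5 with FGF2 and U0126. It fell by 2.32 ± 0.11 (limma adjusted p = 9.23e-09), and 0.11 ± 0.11 with FGF2 alone did not pass the test. Id4 and Id3, inhibitors of differentiation that BMPs induce, fell by 0.90 ± 0.06 and 0.96 ± 0.06, and Id3 lay -0.60 from FGF2 alone while the interval of Id4 was -0.10 to 0.15.

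Of 15 FGF ligands, receptors and coreceptors measured 6 were lower and 0 higher than vehicle, and 3 were lower and 2 higher under median centring. The endogenous Fgf2 transcript had 86.7 and 88.4 with vehicle, 179.9 and 134 with FGF2 and 57.5 and 41.5 with FGF2 and U0126. It rose by 0.88 ± 0.19 with FGF2 alone and fell by 0.73 ± 0.19 with U0126 present, a call that was lost without replicate 2 of vehicle (-0.70, limma adjusted p = 0.0529) or replicate 2 of FGF2 with U0126 (-0.53, limma adjusted p = 0.0957). Fgfr1 was not called, at -0.15 ± 0.07, and Fgfr3, which marks astrocytes, was lower with FGF2 alone, at -0.66 ± 0.09, and not called with U0126, at -0.044 ± 0.09. Sdc4, a heparan sulfate proteoglycan, had 769.7 and 782, 914 and 922 and 517 and 455 and fell by 0.71 ± 0.08. Among secreted growth factors 6 of 20 were higher and 7 lower, beside 16.7% and 15% of all genes. Tgfa, an EGF receptor ligand, was up by 1.12 ± 0.14 and Vegfa by 0.90 ± 0.15, and Igf1 was down, with a log2 change of -1.95 ± 0.14. Tgfa was not called with the mean of its probe sets, at 0.59. Angptl4, which inhibits lipoprotein lipase, had 152 and 161, 187 and 224 and 41.5 and 38.6; it rose with FGF2 alone by 0.42 ± 0.14 and fell by 1.86 ± 0.14 with U0126, a call lost with the mean of its probe sets (-0.89, limma adjusted p = 0.0693).

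**Figure D5:**
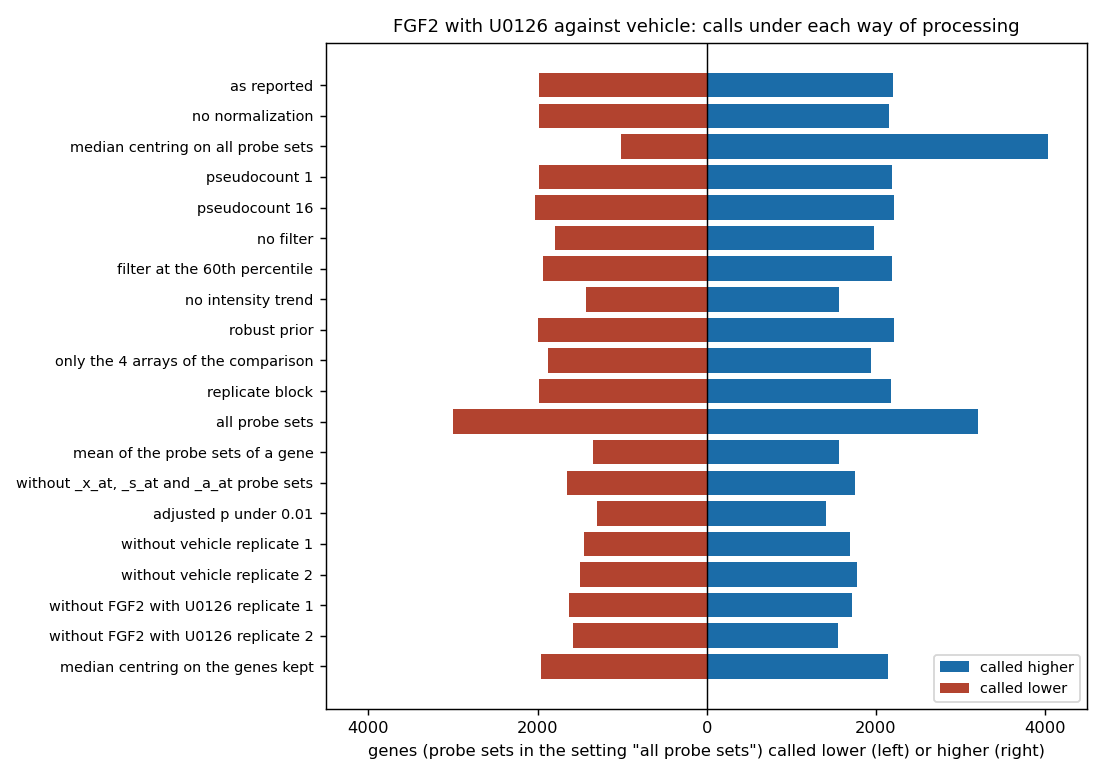
Number of genes called higher (blue, right) and lower (red, left) with FGF2 and U0126 against vehicle as reported and under each other way of processing; "without" rows leave out 1 array. Median centring on all probe sets gives 4030 higher and 1014 lower, against 2196 and 1981 as reported.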

How the data were processed

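The 8 samples, 1 Affymetrix mouse array each, form 4 groups of 2 by their labels, which are vehicle, FGF2 alone, and FGF2 with either U0126 or the p38 inhibitor SB202190. The deposited values were intensities on a linear scale for 45101 probe sets. The algorithm and the software the authors used to make them are not given in the sources used here. Every array had the same mean once 2% of its values were trimmed at both ends, so the arrays had been scaled to a common mean. The values hold no detection calls that were used here.

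A value of 1.772, the 10th percentile of all values, was added, log2 was taken and the arrays were normalized to common quantiles. At low signals the addition makes a difference smaller. The platform annotation gave 1 symbol to 34958 probe sets, several to 932 and none to 9211; a gene's name rests on the probe sets with 1, with symbols updated by gene ID where RefSeq held it (34754 probe sets). The probe set with the highest mean stood for its gene, and genes whose mean lay above the 40th percentile (log2 of 3.827) were tested, 13174 of 18194. Group means of all 8 arrays were fitted in limma 3.58.1 (R 4.3.3) with the variance prior following intensity (residual degrees of freedom 4, prior 8.994), so the spread is estimated over all 4 groups, and p-values were adjusted by Benjamini and Hochberg within a comparison. Intervals are at 95%. A sample of the SB202190 group whose label gives another treatment type than the rest enters through the spread alone. The procedure was tested on simulated data in which 200 of 13174 genes were changed, far fewer than were called here. It called 46.3% of 1.5-fold, 61.2% of 2-fold and 87.9% of 4-fold changes in the right direction. Of its 139 calls 9 were of unchanged genes. A gene that was not called may therefore still differ.

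The comparison, the 43 gene lists and the tests were chosen with earlier results of these data known. The rule for named genes took the 20 highest and 20 lowest called genes with a mean signal of at least 50 in the higher group and no overlap, up to 4 members a list by p, all members of 7 lists of ERK, NRF2 and aryl hydrocarbon receptor genes, and the defining markers: 254 genes, of which a part is named, chiefly genes that stayed called in most alternatives. A further 47 list members were chosen after their values were seen: Timp1, Plat, Esm1, Serpinb2, Mmp3, Emp1, Il11, Plaur, Cd44, Vegfa, Fgf2, Fgfr3, Fgfr1, Ccne2, E2f1, E2f3, Cdkn1b, Cdkn1c, Rrm2, Mcm6, Mcm7, Mcm3, Mki67, Ccna2, Top2a, Ddit3, Atf4, Nupr1, Phgdh, Shmt2, Slc38a2, Hspa5, Pdia4, Gsta2, Gstm1, Socs3, Lifr, Glul, Tnc, Nes, Irf7, Bst2, Tgfa, Lum, Psph, Bub1b and Mad2l1. Promoter sequences are RefSeq's, of build GRCm38.p6, matched by symbol for 10616 of the genes tested, and figures were drawn with Python 3.11.15 and matplotlib 3.10.9. Alternatives were other normalizations, pseudocounts, filters and thresholds, a variance prior that is robust or has no trend, the 4 arrays alone, a replicate block, other ways of choosing probe sets, and leaving out each array. Same-numbered samples of different groups did not deviate together (r of -0.026 to 0.034), so the numbers were not used as pairs.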

Additional observations from a re-analysis of the deposited data

How the results depend on the processing

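The number of called genes, 4177 as reported, lay between 2909 (probe sets of a gene averaged) and 5044 (median centring on all probe sets) over the alternatives that test genes at the 0.05 threshold with all arrays of both groups. Leaving out each array in turn gave 3131 to 3342 calls, 1553 to 1778 higher, 1454 to 1626 lower and 633 to 671 of at least 2-fold. Median centring on all probe sets moved the median of all genes from 0.014 to 0.19 and gave 4030 higher and 1014 lower. Centring on the genes kept, an alternative chosen after seeing the data, gave 2143 higher and 1962 lower. An adjusted p under 0.01 left 2713 calls, 1414 higher and 1299 lower. A pseudocount of 16 left 423 called genes of at least 2-fold in place of 650, as it shrinks changes at low signals. All 23924 probe sets that passed the filter gave 6198 calls, 2997 of them lower, and 1075 of at least 2-fold. The sign of B2m turned to 0.13, of Stmn2 to 0.015, of Plat to 0.008 and of Hspa5 to 0.11 with median centring. With the mean of the probe sets it turned for Rb1 (0.29), Tpx2 (-0.072), Bub1b (-0.072) and Ddit3 (-0.45), and without probe sets that can bind several transcripts for Tpm2 (-0.31) and Bub1b (-0.30); the cause was not tested. Of 213 called genes that the rule took 27 lost the call without some array and 59 under some alternative, and of 35 chosen later 7 and 15. With the mean of their probe sets 38 of these genes lost the call with the sign unchanged. Among them were Ahr, Angptl4, Anln, Arnt, Atf4, Cdkn1b, Cxcl12, Cyp1b1, E2f1, Gsta3, Jund, Lifr, Mad2l1, Mcm7, Pax6, Pdgfra, Pdia4, Plat, Rrm2, Slc1a2, Stat3 and Tgfa. The replicate block gave 4162 calls, of which 4073 were among those reported, in a check where the shared number showed no pairing. With 2 arrays a group the median SE of a log2 change was 0.14, which limits the changes that can be called.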

Other observations

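Complement genes were lower in 5 of 9 cases and higher in 0, and 3 were lower without replicate 2 of vehicle or with median centring. Serping1, the inhibitor of C1, had 1130.2 and 1116 with vehicle, 589 and 615 with FGF2 and 697 and 648 with FGF2 and U0126, a log2 change of -0.78 ± 0.07. Of 16 Wnt pathway targets 5 were lower and 0 higher, among them the secreted inhibitor Dkk3, which fell by 1.19 ± 0.12. Fzd1, a Wnt receptor, had 597 and 638, 1125 and 1137 and 488 and 413, so it rose by 0.85 ± 0.09 with FGF2 alone and fell by 0.49 ± 0.09 with U0126 present. Among targets of NF-kB and chemokines 2 of 17 were higher and 4 lower, beside 16.7% and 15% of all genes. Their median was -0.060, and 4 were higher and 3 lower under median centring. Tnfaip2 rose by 1.29 ± 0.09, and the chemokine Cxcl12 fell by 1.74 ± 0.11, a call lost with the mean of its probe sets (-0.48, limma adjusted p = 0.307).

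Lists of other cell types held called members as well. Of 8 microglial genes measured 1 was higher and 2 were lower, and the lysosomal genes Cd68 and Ctss moved in opposite directions, by 1.09 ± 0.16 and -1.25 ± 0.16. Neuronal genes gave 2 higher and 2 lower of 11, endothelial genes 1 and 2 of 8, and genes of myelinating oligodendrocytes 0 and 2 of 5, beside the 31.7% of all genes that were called. Slco1a4, an organic anion transporter of the blood-brain barrier that astrocytes express too, had 1666 and 1532 with vehicle and 889.5 and 821 with FGF2 and U0126, a log2 change of -0.94 ± 0.09.

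The letters of the ETS core, CCGGAAG on either strand, were present in 22.5% of the promoter windows of genes called higher, 8.73% of those called lower and 15.9% of all windows. Among genes called and changed at least 2-fold the shares were 11.5% for the higher and 3.32% for the lower genes, both below the share of all windows. For the xenobiotic response element core, GCGTG, the shares in genes called higher, genes called lower and all windows were 56.3%, 45.6% and 48.9%. Base composition of the windows was not compared, and no test was made of these differences.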
